A study of Mus musculus with 18 samples.

Results

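Myc, Mycn and Mycl, the 3 genes of the Myc family in the mouse, were examined for the CTCF-bound regions that surround them. A region was taken when any of its summits lay inside one of the genes or within 100 kb of it on mm10. By this rule 26 of 71075 regions belonged to the family in wild-type cells (WT), 24 of 62238 in the Tet1, Tet2 and Tet3 triple knockout (TKO), and 23 of 59372 in the sextuple knockout that lacks Dnmt1, Dnmt3a, Dnmt3b and all 3 Tet genes (SKO). Merged over the lists they made 27 of 78072 sites. CTCF-bound DNA from mouse embryonic stem cells was immunoprecipitated and sequenced (ChIP-seq), with 3 ChIP samples and 3 inputs for each genotype, 18 libraries over 6 groups. The authors pooled the replicates before peak calling, so each genotype has 1 list, no value has a spread between replicates, and no test between genotypes was possible. The labels do not say whether replicates were separate cultures. The cells grew on irradiated mouse fibroblast feeders, whose chromatin may be in the lysates. TKO and SKO cells share the loss of the Tet genes and differ in the Dnmt genes. Each genotype is also its own cell line, so the missing enzymes and other differences between the lines cannot be told apart.

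The Myc genes encode basic helix-loop-helix leucine zipper transcription factors that bind DNA as dimers with MAX and drive growth and proliferation. MYC and MYCN are known to be active in pluripotent stem cells, while MYCL is best known from other tissues and from lung tumours. Myc and Mycn are known to be controlled by distant enhancers, and CTCF, a zinc finger protein that anchors chromatin loops together with cohesin, is known to bind next to the Myc promoter. CpG methylation inside the CTCF motif can hinder its binding at some sites; the DNMT enzymes place that methylation and the TET enzymes oxidise it.

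The neighbourhoods of the members differed in how many CTCF regions they held. Myc (gene 17869, chr15:61985341-61990361) had 4 regions in WT, 5 in TKO and 5 in SKO. Mycn (gene 18109, chr12:12936093-12941836) had 6 in WT, 5 in TKO and 4 in SKO. Mycl (gene 16918, chr4:122995588-123002490) had 16 in WT and 14 in each knockout. The gene bodies span 5021, 5744 and 6903 bp, so the windows were nearly equal, at 205.0, 205.7 and 206.9 kb. Per 100 kb of window, Mycl held 7.73 WT regions, against 1.95 for Myc and 2.92 for Mycn. Among the windows of 21887 protein-coding genes, which held a median of 11 WT regions (quartiles 6 and 16), Mycl stood at percentile 73.3, Mycn at 25.3 and Myc at 17.4. The order of Mycl above the other members held in the TKO and SKO lists, where Mycl stood at percentiles 71.1 and 73.8. It nearly vanished in a narrower window. Within 50 kb, Myc, Mycn and Mycl held 4, 4 and 5 regions in WT. In TKO they then held 4, 4 and 4, and in SKO 4, 3 and 4. Within 200 kb the order held, with 5, 8 and 27 regions in WT. There TKO had 5, 7 and 22 and SKO 5, 6 and 21. By percentile within 100 kb, Myc and Mycn stood equal in TKO, both at 24.2, and in SKO Myc (25.6) stood above Mycn (20.8).

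The members also differed in their surroundings. Neither Myc nor Mycn had another protein-coding gene touching its window. The nearest to Myc were A1bg, 1064 kb toward lower coordinates, and Gsdmc, 1786 kb toward higher ones. Beside Mycn they were Cyria at 555 kb and Ddx1 at 277 kb. Mycl shared its window with Mfsd2a, which encodes a transporter of lysophospholipids and lies 34.4 kb away, and with Trit1, which encodes a transfer RNA modifying enzyme and lies 14.1 kb away. The noncoding gene Pvt1, the usual neighbour of Myc, begins within the Myc window and extends past it.

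**Figure D1:**
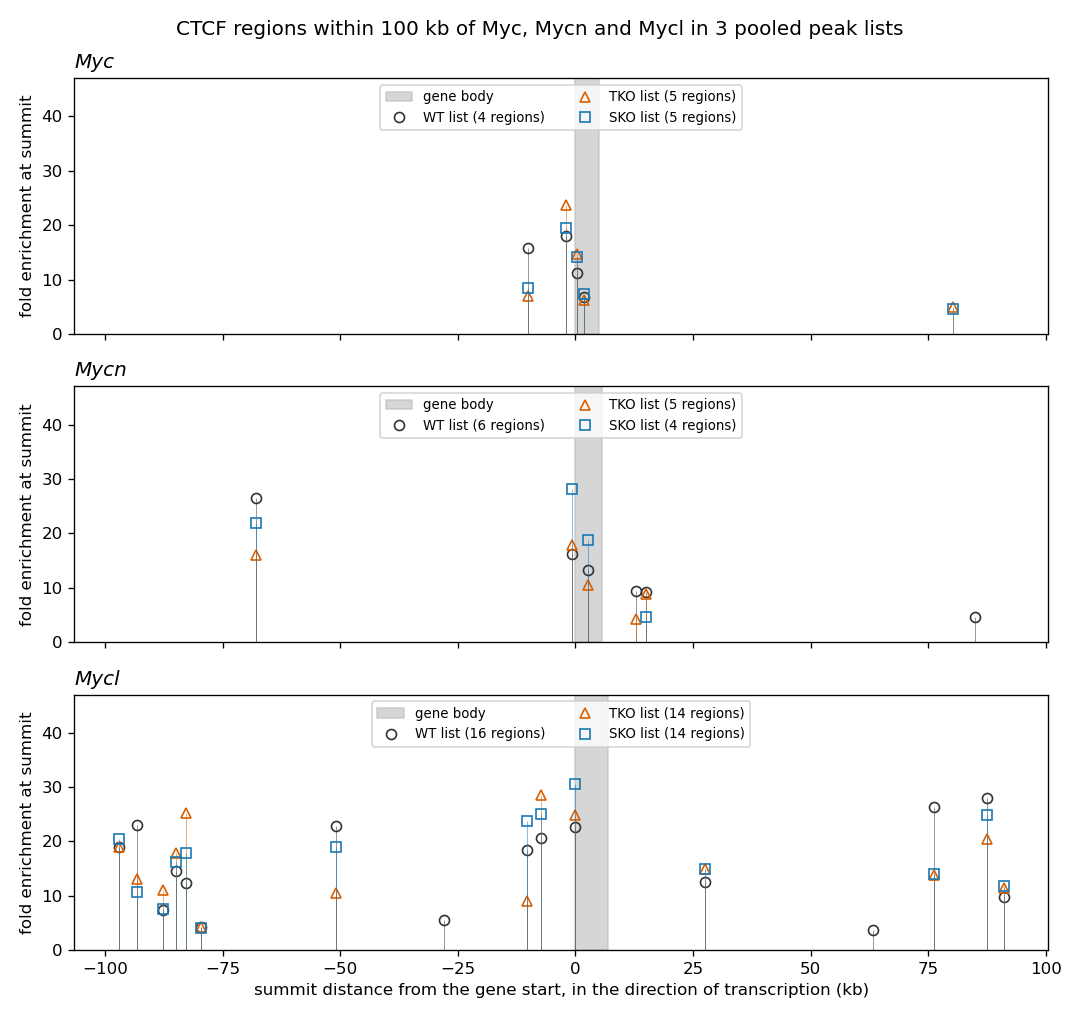
Fold enrichment at the summit (vertical axis) against summit distance from the gene start in kb, in the direction of transcription (horizontal axis), for each region near Myc, Mycn and Mycl. Circles are the WT list, triangles TKO and squares SKO, each pooled from 3 replicates, and the grey band is the gene. Regions stand close to the start of each gene in all 3 lists, and Mycl has the most regions.

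Most of these sites were listed in all genotypes. Of the 27 sites 22 were in all 3 lists: 4 of 5 at Myc, 4 of 6 at Mycn and 14 of 16 at Mycl. Of the WT regions 3 of 26 (11.5%, exact 95% binomial interval 2.45 to 30.2%) had no TKO region over them by at least 1 bp, where 19% of all WT regions had none. In SKO 4 of 26 (15.4%, 4.36 to 34.9%) were missing, against 21.9% of all WT regions. In the other direction 1 of 24 TKO regions was missing from WT, against 7.49% of all TKO regions, and 1 of 23 SKO regions, against 6.59%. Between the knockouts, 1 of 24 TKO regions was missing from SKO, against 14.5% of all TKO regions. Of the SKO regions 0 of 23 were missing from TKO (exact 95% upper limit 14.8%), against 10.4% of all SKO regions. Each of these backgrounds lies inside the interval of the members' share, so a difference from all regions was not detectable at these numbers. The intervals here and below cover counting error only, and the PCR-amplified reads are not independent molecules.

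The regions near the members were mostly strong ones, and strength went with presence. When each list was divided into 10 deciles by −log10 q, the peak caller's adjusted significance, 19 of the 26 WT regions were in the upper 50% of the list and 4 of 26 in its 2 weakest deciles. Over the whole WT list, decile 1 (the weakest) lacked a TKO partner for 70.4% of its regions and a SKO partner for 76.9%, against 1.58% and 2.11% in decile 6. In decile 10, 0 of 7107 had no TKO partner and 1 of 7107 no SKO partner. The 4 WT regions near members that were missing from a knockout were in deciles 1, 1, 2 and 5.

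**Figure D2:**
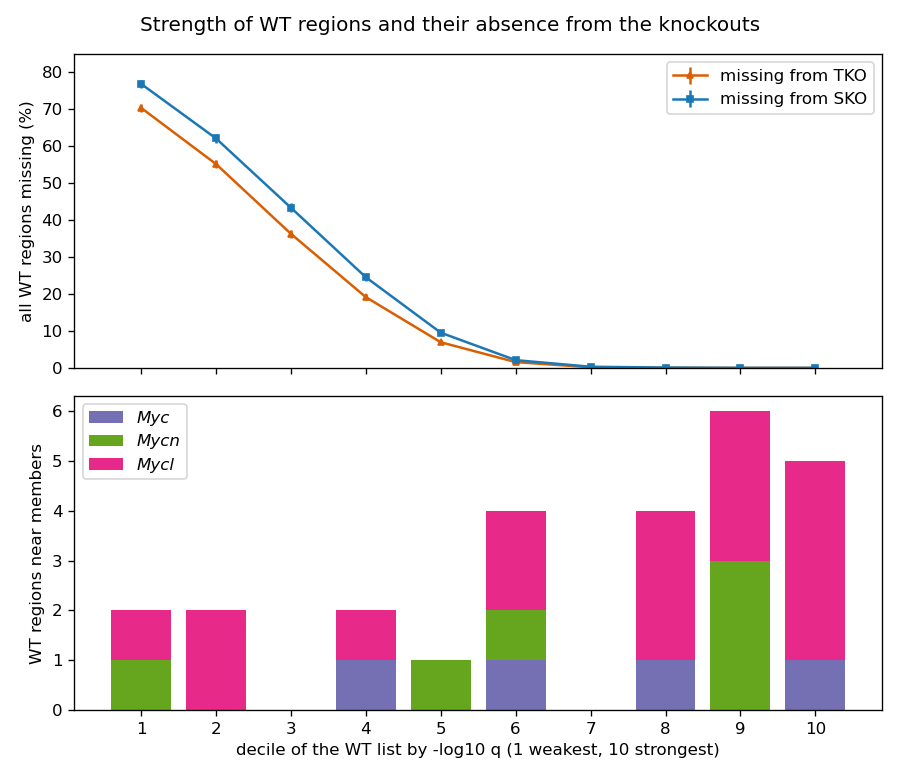
Top, percent of all WT regions with no region over them in TKO (triangles) or SKO (squares), by decile of the WT list by −log10 q (1 is the weakest), with 95% Wilson intervals that are mostly smaller than the symbols. Bottom, number of WT regions near Myc, Mycn and Mycl in each decile, which shows 19 of 26 in deciles 6 to 10, where few regions are missing.

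Strength at a site is given here in 2 ways. Fold enrichment is the authors' value at the summit, ChIP signal over the local background. Pileup is the number of ChIP fragments over the summit, solved from that fold and the −log10 p, and came out whole (relative tolerance 1e-04) in 100% of rows. The lists had median pileups of 40 in WT, 41 in TKO and 35 in SKO, and the median ratio at shared regions was 0.895 for TKO over WT (57583 regions) and 0.734 for SKO over WT (55504 regions). Knockout over WT pileups were divided by these medians, so that a relative pileup of 1 is the typical shared region. A value of 1 therefore does not mean a pileup equal to WT, since a difference common to all shared regions is divided out. The central 95% of all shared regions spanned 0.585 to 1.72 in TKO and 0.538 to 1.78 in SKO.

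Myc had a tight group of sites around its start, which was taken to be its lower end. Sites are numbered by rising coordinate. Myc site 2 (chr15:61983201-61983614 in WT), 1.91 kb before the start, was the strongest of the gene, with pileups of 127 in WT, 150 in TKO and 122 in SKO. Its folds, in the same order, were 18.1, 23.8 and 19.4, and it was in decile 10 of each list. Its relative pileup was 1.32 in TKO (95% counting interval 1.04 to 1.69) and 1.31 in SKO (1.01 to 1.69), above 1 in both by counting error, yet at percentiles 87.0 and 84.9 of all shared regions. The site was therefore kept in both knockouts and lay within the spread of shared regions.

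Inside the gene, Myc site 3 lay 249 bp after the start and had pileups of 52, 56 and 46 in WT, TKO and SKO, with folds of 11.3, 14.7 and 14.1. Its relative pileups, 1.20 in TKO (0.810 to 1.79) and 1.20 in SKO (0.792 to 1.83), could not be told from 1. Myc site 4, 1.84 kb after the start, was weaker, with pileups of 27, 33 and 29 and folds of 6.74, 6.26 and 7.29. It was the only one of the 27 sites with more than 1 summit, in WT and in SKO but not in TKO. Its relative pileups of 1.37 (0.797 to 2.36) and 1.46 (0.836 to 2.57) had wide intervals that held 1. The annotation table used here gives gene spans without exons, so exon and intron were not assigned.

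Farther from the gene lay the other sites of Myc. Myc site 1 (chr15:61975027-61975440), 10.1 kb before the start, had folds of 15.8 in WT, 7.02 in TKO and 8.37 in SKO. Its pileups were 65, 48 and 38, and its local background was 3.17, 5.98 and 3.66. The relative pileup was 0.825 in TKO (0.556 to 1.22) and 0.796 in SKO (0.519 to 1.21). By counting error neither could be told from 1, while the background was highest in TKO, where the fold was lowest.

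Myc site 5 was listed in both knockouts and not in WT. It lay 75.2 kb beyond the gene inside Pvt1, at chr15:62065391-62065641 in TKO and chr15:62065349-62065606 in SKO, with summits 50 bp apart. It was weak, with a fold of 4.92 and a pileup of 14 in TKO, and a fold of 4.63 and a pileup of 11 in SKO. In both lists it was in decile 1, of which 41.8% in TKO and 37.5% in SKO had no WT region. At the median ratio these pileups would stand at 15.6 and 15.0 in WT, whose smallest listed pileup was 7, so they are above the smallest that WT lists. That minimum holds only where the local background is at its lowest, here and for the sites below, and rises with the background. This was the only one of the 5 Myc sites that was not in all 3 lists.

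Mycn, which is transcribed toward lower coordinates, had its strongest sites in the gene and before its start, all in decile 9 of the WT list, and sites in deciles 1, 5 and 6 beyond its end. Mycn site 5 (chr12:12942279-12942792), 720 bp before the start, had pileups of 118 in WT, 129 in TKO and 105 in SKO. Its folds were 16.2, 17.8 and 28.1. The SKO fold was the highest while the SKO pileup was the lowest, and its local background was 2.78 in SKO against 6.34 in WT and 6.30 in TKO. Its relative pileup was 1.22 in TKO (0.944 to 1.58) and 1.21 in SKO (0.923 to 1.59).

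Mycn site 4, inside the gene and 2.72 kb after its start, had pileups of 106, 101 and 93 in WT, TKO and SKO and folds of 13.1, 10.4 and 18.8. Relative pileups were 1.06 (0.803 to 1.41) and 1.19 (0.895 to 1.59). Mycn site 6, 67.8 kb before the start, had pileups of 72, 65 and 51 and folds of 26.5, 15.9 and 22.0. Its relative pileups were 1.01 and 0.965, close to the typical shared region. None of the relative pileups of these 3 Mycn sites could be told from 1 by counting error.

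The sites past the 3′ end of Mycn held the lowest relative pileup of any member site in each knockout. Mycn site 3 (chr12:12928744-12929003), 7.23 kb beyond the end, had a pileup of 30 and a fold of 9.29 in WT, a pileup of 15 and a fold of 4.17 in TKO, and no region in SKO. Its relative pileup in TKO was 0.559 (0.279 to 1.07), at percentile 1.84 of shared regions. It was in decile 5 of the WT list, of which 9.54% was missing from SKO. At the median ratio its WT pileup would stand at 22.0 in SKO, where the smallest listed pileup was 7. This was the only WT region near a member that was in TKO and missing from SKO.

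Mycn site 2 (chr12:12926655-12927005) lay 9.28 kb beyond the end, next to site 3. Its pileups were 47 in WT, 32 in TKO and 13 in SKO, and its folds 9.18, 8.83 and 4.67. Its relative pileup was 0.761 in TKO (0.470 to 1.22), and 0.377 in SKO (0.187 to 0.708), at percentile 0.210 of shared regions. Set against TKO, its SKO pileup was 0.495 of the typical ratio (0.238 to 0.969), at percentile 1.00. It was the only site with a counting interval wholly below 1 in SKO, where 5.56% of all shared regions had such an interval. Both neighbouring sites thus had their lowest or no listed signal in SKO and intermediate pileups in TKO, although 1 pooled list a genotype gives no replicate check of that order.

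Mycn site 1 (chr12:12856686-12856891), 79.2 kb beyond the end, was listed in WT alone. Its fold was 4.63 and its pileup 12, in decile 1 of the list. Scaled by the median ratios it would stand at 10.7 in TKO and 8.81 in SKO, close to their smallest listed pileups of 8 and 7. A region this weak was more often missing than kept over all WT regions, as given above for decile 1.

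**Figure D3:**
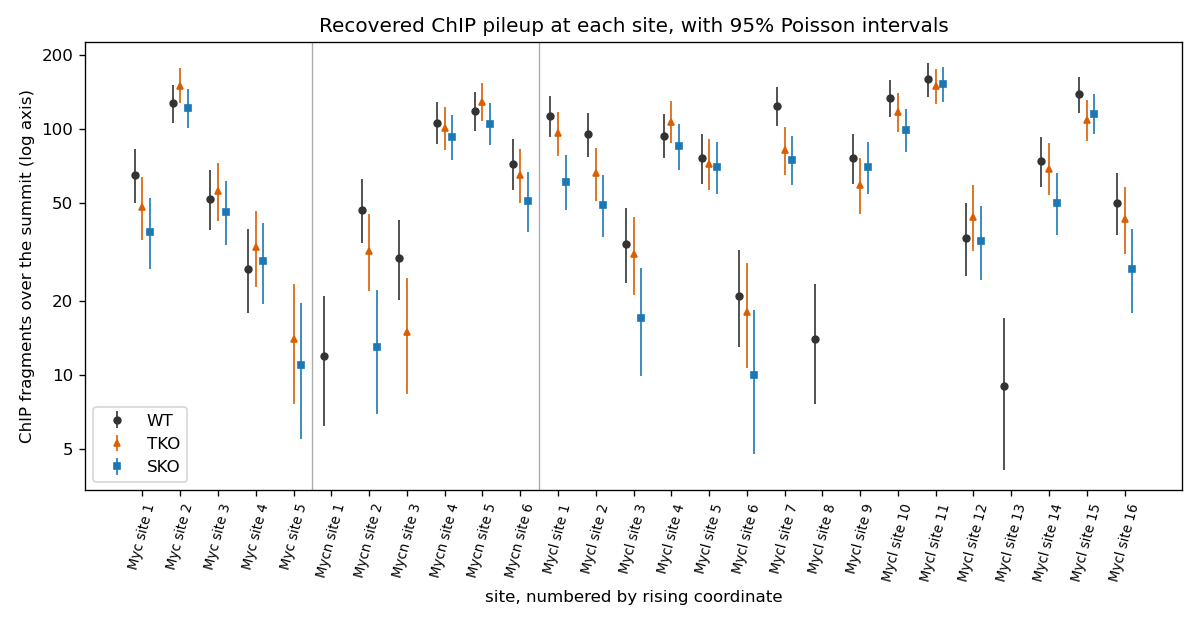
ChIP fragments over the summit (log axis) at each of the 27 sites, numbered by rising coordinate within Myc, Mycn and Mycl, in WT (circles), TKO (triangles) and SKO (squares), with exact 95% Poisson intervals that cover counting error only. A missing symbol means no region in that list. At Mycn site 2 the pileups are 47, 32 and 13, while Mycl site 11 stands at 159, 149 and 152.

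Mycl site 11, at the gene itself, had the largest pileup of all member sites in WT and SKO. In TKO Myc site 2 had 1 fragment more. Mycl site 11 (chr4:122995304-122995786), with its summit 64 bp before the lower end of the gene, had pileups of 159 in WT, 149 in TKO and 152 in SKO. Its folds were 22.6, 24.8 and 30.6, and it was in decile 10 of each list. The relative pileup was 1.05 in TKO (0.832 to 1.32) and 1.30 in SKO (1.04 to 1.64, percentile 84.5). The fragment number was thus nearly the same in each list, while the relative pileup in SKO was above 1 by counting error. It still lay within the spread of shared regions.

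The Mycl promoter window of RefSeq (GRCm38.p6, chr4:122995681-122995980, plus strand, 300 bases around an annotated start) was overlapped by this region over 106 bp in WT, 94 bp in TKO and 110 bp in SKO. It is shown because, of the members with a promoter window (Mycn and Mycl), only Mycl had it under a CTCF region. The capitals mark the bases under the WT region.
Mycl promoter: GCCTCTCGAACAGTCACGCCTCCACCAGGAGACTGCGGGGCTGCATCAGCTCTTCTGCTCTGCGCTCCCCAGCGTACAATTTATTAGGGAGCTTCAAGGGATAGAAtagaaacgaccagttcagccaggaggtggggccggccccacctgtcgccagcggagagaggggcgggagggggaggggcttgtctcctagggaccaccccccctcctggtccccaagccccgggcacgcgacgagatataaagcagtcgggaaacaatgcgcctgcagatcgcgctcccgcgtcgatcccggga
The summit lay 157 bp before the window in WT, 166 bp in TKO and 163 bp in SKO, so the strongest signal is outside the printed bases. The core letters of the CTCF motif, CCNNNAGNNGGC, were searched on both strands and had no match in this window. They occur in 8.61% of all 32851 promoter windows, in 26.6% of the 3097 windows under a WT region and in 6.74% of the others. The Mycn window (chr12:12941787-12942086) was under no region in any list. Promoter windows were found for Mycn and Mycl among the members. None was available for Myc, so its promoter was not examined in this way.

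Upstream of Mycl, sites 9 and 10 stood 10.3 and 7.40 kb before the gene. Mycl site 10 had pileups of 134, 117 and 99 in WT, TKO and SKO, and relative pileups of 0.976 and 1.01. Mycl site 9 had pileups of 76, 59 and 70 and folds of 18.5, 9.00 and 23.7, with relative pileups of 0.868 (0.607 to 1.24) and 1.25 (0.893 to 1.76). Set against TKO, its SKO pileup was 1.44 of the typical ratio (1.01 to 2.08), at percentile 92.0. The TKO background at this site was 5.67 against 3.17 in WT and 2.00 in SKO.

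Mycl site 7 (chr4:122944355-122944822) lay 51.0 kb before Mycl and 2.25 kb from Mfsd2a. Its pileups were 124, 82 and 75, and its folds 22.8, 10.5 and 19.0. The relative pileup was 0.739 in TKO (0.552 to 0.985, percentile 11.2) and 0.824 in SKO (0.610 to 1.11). It was the only site with a counting interval wholly below 1 in TKO, where 4.61% of all shared regions had one. That share of all regions is close to 1 of the 23 shared sites near members.

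A cluster of 6 sites, Mycl sites 1 to 6, lay 97.1 to 79.6 kb before the gene, with Cap1, which encodes a regulator of actin, as the nearest protein-coding gene. All 6 were in all 3 lists. WT pileups were 113, 95, 34, 94, 76 and 21 from site 1 to site 6. Relative pileups ran from 0.776 to 1.27 in TKO and from 0.648 to 1.25 in SKO, and each counting interval held 1. In SKO, sites 4 and 5 stood above 1 (1.23 and 1.25) and sites 1, 2, 3 and 6 below it (0.735, 0.702, 0.681 and 0.648). At Mycl site 5 the folds of WT, TKO and SKO were 12.2, 25.3 and 17.8, while the pileups were 76, 72 and 70. The backgrounds behind these folds were 5.29, 1.89 and 3.00, so fold differed between lists where fragment number hardly did.

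Past Mycl, site 12 lay inside Trit1, with pileups of 36, 44 and 35 and folds of 12.4, 14.9 and 14.9. It was the only member site inside a protein-coding gene other than a member. Mycl site 14 had pileups of 74, 69 and 50 and folds of 26.3, 13.7 and 13.9. Mycl sites 15 and 16, inside the overlapping noncoding genes Gm12923 and Gm46868, had pileups of 138, 109 and 115 and of 50, 43 and 27. None of the 4 had a counting interval of its relative pileup that left out 1. Relative pileups at sites 14, 15 and 16 were 1.04, 0.883 and 0.961 in TKO, and 0.920, 1.13 and 0.735 in SKO.

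The other Mycl sites were WT regions without a partner in either knockout. Mycl site 8 (chr4:122967624-122967850), 27.9 kb before the gene, had a fold of 5.44 and a pileup of 14, in decile 2, of which 55.2% was missing from TKO and 62.1% from SKO. Mycl site 13 (chr4:123058858-123059099), 56.5 kb past the gene, had a fold of 3.63 and a pileup of 9, the lowest of all member regions. Scaled by the median ratios it would stand at 8.05 in TKO and 6.61 in SKO, close to or under the smallest pileups those lists hold, 8 and 7. For site 8 the scaled values were 12.5 and 10.3, above those minima.

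**Figure D4:**
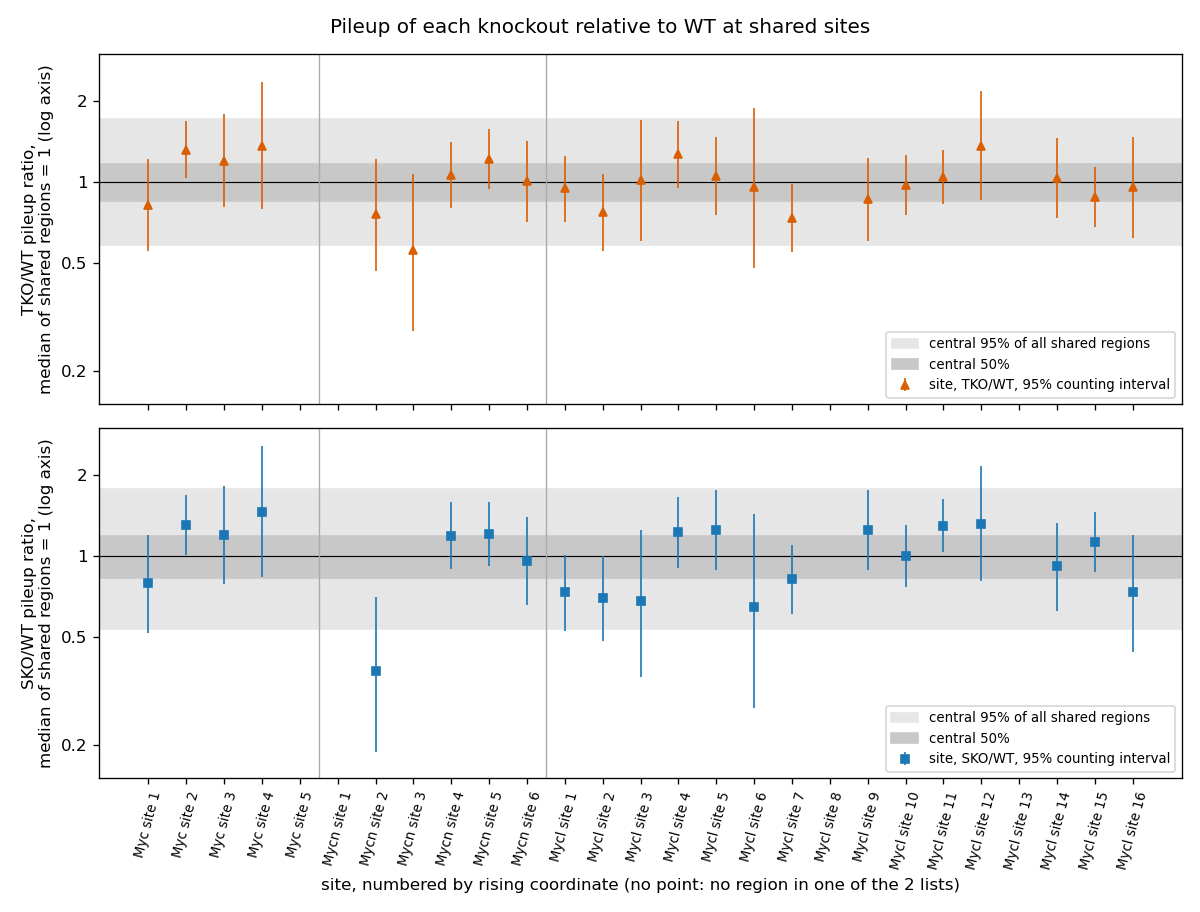
Knockout over WT pileup divided by its median over all shared regions (log axis, where 1 is the typical shared region), for each site of Myc, Mycn and Mycl listed in WT and in TKO (top) or SKO (bottom). Bars are 95% counting intervals, and the grey bands hold the central 95% and 50% of all shared regions. Mycn site 2 (0.377 in SKO) and Mycn site 3 (0.559 in TKO) lie below the wider band, and no site lies above it.

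Among themselves the members' shared sites centred on the typical region. The median relative pileup was 1.01 over 23 sites in TKO and 1.07 over 22 sites in SKO, with 11 and 10 of them below 1. By gene, the medians were 1.26 in TKO and 1.26 in SKO at Myc, 1.01 and 1.08 at Mycn, and 0.969 and 0.963 at Mycl. Counting intervals wholly above 1 were found at 1 site in TKO and 2 in SKO, where 3.90% and 5.57% of all shared regions had one. The TKO and SKO ratios share their WT pileups, so a site's 2 values are not separate evidence. Summits stayed in place, with a median shift from WT of 9 bp in TKO and 7.5 bp in SKO and a largest shift of 30 and 23 bp, against medians of 10 and 11 bp over all shared regions.

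Sites close to the members' own ends stood somewhat higher than those farther away. The distance of 3 kb was chosen after the values were seen, so the counts describe these lists and support nothing further. The 6 sites within 3 kb were Myc sites 2, 3 and 4, Mycn sites 4 and 5, and Mycl site 11. All 6 had relative pileups above 1 in both knockouts, with a range of 1.05 to 1.37 in TKO and 1.19 to 1.46 in SKO. Of the sites farther away, 35.3% of 17 in TKO and 37.5% of 16 in SKO stood above 1, with medians of 0.958 and 0.872. Over all shared regions the split at 3 kb was made from the ends of genes in general, so it is not the same division. It gave medians of 1.02 and 0.994 in TKO and 1.02 and 0.995 in SKO. Regions above 1 made up 53.1% within 3 kb and 49.0% beyond it in TKO, and 53.2% and 49.2% in SKO. Of the sites near other genes, Mycl site 7 stood below 1 in both knockouts. It lay 2.25 kb from Mfsd2a, so the division by genes in general would count it as near. Mycl site 12, inside Trit1 but more than 3 kb from either end of it, stood above 1 in both (1.37 and 1.32).

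Each member had exactly 1 region with a summit within 1 kb of one of its ends in every list. These were Myc site 3, Mycn site 5 and Mycl site 11. Of all 21887 protein-coding genes, 5906 (27.0%) had such a summit in WT, 5586 (25.5%) in TKO and 5478 in SKO.

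The window bound decided a few regions. In WT a region of fold 4.51 lay 101.0 kb from Myc and one of fold 5.63 lay 101.7 kb from Mycl, both just outside. The last regions inside were at 10.1 kb for Myc, 79.2 kb for Mycn and 97.1 kb for Mycl in WT. At Mycn the next region outside was 143.8 kb away in each list, and at Myc the next one in both knockouts was 297 kb away. Neither of the WT regions just outside had a counterpart at that distance in TKO or SKO, where the first region outside the Mycl window was 125.4 kb away.

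The wider Myc network was followed through 13 genes for dimerisation partners, antagonists and regulators of the family. These were Max, the common partner; Mxd1, Mxd3, Mxd4, Mxi1, Mnt and Mga, which encode other partners of MAX; Mlx, Mlxip and Mlxipl of the related MLX branch; and Zbtb17, Trrap and Fbxw7, for a MYC-binding zinc finger protein, a coactivator and a ubiquitin ligase subunit that targets MYC. Within 100 kb of them lay 231 regions in WT, 206 in TKO and 192 in SKO. Of the WT regions 45 were missing from TKO (19.5%) and 52 from SKO (22.5%), shares near those of all WT regions given above. Regions missing from WT were 19 of 206 in TKO (9.22%) and 12 of 192 in SKO (6.25%), against 7.49% and 6.59% of all regions.

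The network genes with most WT regions missing from either knockout were Mlxip (9 of 21), Mnt (9 of 18) and Mlxipl (8 of 31). Mga (21 regions) and Zbtb17 (24 regions) followed with 6 each. Over the 13 genes together 61 of 231 WT regions were missing from at least 1 knockout, against 26.9% of all WT regions. Max had 14 regions in WT, 12 in TKO and 14 in SKO, with 3 missing from each knockout. Near Mlx, 2 of 14 WT regions were missing from SKO. Of the network genes 6 in WT, 6 in TKO and 5 in SKO had a summit within 1 kb of an end, where each of the 3 members had one in all lists.

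RefSeq promoter windows were found for all 13 network genes, 19 windows in all, of which 3 were under a WT region. Trrap was the only one of these genes with a window that was both under a region and held the motif core. Its window (GRCm38.p6, chr5:144768544-144768843, plus strand) was wholly covered in each list, with folds of 26.7 in WT, 25.9 in TKO and 26.7 in SKO. It is shown as the counterpart of the Mycl window, with the match, which lies on the other strand from base 196, in capitals.
Trrap promoter: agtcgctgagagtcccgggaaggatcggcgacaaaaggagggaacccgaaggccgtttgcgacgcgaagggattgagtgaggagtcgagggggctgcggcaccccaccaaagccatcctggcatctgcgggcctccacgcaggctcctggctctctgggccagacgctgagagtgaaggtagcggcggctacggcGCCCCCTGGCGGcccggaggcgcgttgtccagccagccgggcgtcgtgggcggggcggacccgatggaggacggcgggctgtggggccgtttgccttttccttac
Unlike at Mycl, the summit lay inside the window in all 3 lists. The remaining windows under a WT region belonged to Mlxip, with folds of 4.28 in WT and 3.35 in TKO and no region in SKO, and to Mxi1, with 3.66, 4.96 and 7.92.

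The genes with the pattern most like each member were taken by the sum of differences in the numbers of merged sites in each of the 7 presence classes within 100 kb. For Myc, 12 genes had a summed difference of 0, and those closest in length included Gm30447 and Gm4737. For Mycn, 47 genes had a difference of 0, with Gm8005, Yae1d1 and Rhox2a closest in length. For Mycl, Tbata and Lgmn had a difference of 0 and Inhbb, with 16, 15 and 14 regions in WT, TKO and SKO, a difference of 1. The patterns of Myc and Mycn were shared by more genes than that of Mycl, but they hold 5 and 6 sites against 16. Fewer sites are easier to match, so these numbers do not show how particular a pattern is.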

How the data were processed

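CTCF ChIP and input were sequenced in mouse embryonic stem cells of 3 genotypes. Per the labels, the authors pooled 3 replicates and called peaks, ChIP against input. Tools in the submitters' processing notes are MACS2 2.1.2, Bowtie2 2.3.4, SAMtools 1.9 and bedtools 2.25.0, on mm10; their commands and filters were not given in sources used here. Each deposited peak carries the authors' fold enrichment (a ratio of ChIP pileup to background), −log10 p, −log10 q, a score derived from that q and a summit offset. The lowest −log10 q was 1.30 in WT and TKO and 1.31 in SKO, a q of 0.05. Library read totals were not used. The lowest background, in fragments over a position, was 1.76, 1.82 and 1.37.

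Rows with one interval were joined into a region with its strongest summit (73125, 64121 and 61027 rows). Regions of 2 lists were shared at an overlap of 1 bp or more. Pileup was solved from fold and −log10 p, tested on simulated data. Intervals were exact Poisson and binomial (scipy 1.17.1). Gene spans were read from RefSeq (GRCm38.p6, on which mm10 is built). Named genes were the members, the genes holding a member region or nearest to it, the network genes with most missing regions, and the 3 genes most like each member. One gene that this rule takes is not reported here. The members and lists were chosen with earlier results of these data known. Alternatives changed the window, the q threshold, the overlap and the counting of summits.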

Additional observations from a re-analysis of the deposited data

How the results depend on the processing

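Of 78 recomputed results 60 kept their value within 1.5 times and 18 did not. With 50 kb in place of 100 kb, Mycl had 5 regions in WT, 4 in TKO and 4 in SKO. Myc then had 4, 4 and 4 and Mycn 4, 4 and 3, so Mycl no longer stood above both in the knockouts. WT regions missing from TKO then numbered 1 of 13 and from SKO 2 of 13, and 0 of 12 TKO and 0 of 11 SKO regions were missing from WT. For the network genes the 50 kb window gave 28 WT regions missing from TKO, 8 TKO regions missing from WT and 30 WT regions missing from SKO. The total of network regions in that window was not counted, so these counts have no shares and do not show a changed result. With 200 kb, Mycl had 27 regions in WT and 22 in TKO, against 5 and 5 at Myc and 8 and 7 at Mycn. WT regions missing from TKO were then 7 of 40 and from SKO 9 of 40, and 2 of 34 TKO regions were missing from SKO. A −log10 q of at least 5 left 0 of 21 SKO regions missing from WT. For the network genes it left 31 WT regions missing from SKO and 7 SKO regions missing from WT, again with totals not counted. Counting every summit row, an overlap of 50% of the shorter region, and summits within 100 bp moved none of the 25 results run under them by over 1.5 times.

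No paired analysis was possible because the replicates were pooled before peak calling, so no replicate was left out either. A region absent from a list shows only that its signal did not pass that list's threshold. At the lowest local background that took a pileup of 7 in WT, 8 in TKO and 7 in SKO, and more where the background was higher.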
